A study of Arabidopsis thaliana with 6 samples.

Results

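The subject is the in vivo RNA structure of 16 primary microRNA transcripts (pri-miRNAs) and stretches of 3 mRNAs in leaves of the Arabidopsis thaliana mutant chr2, read from the libraries treated with dimethyl sulfate (DMS) against the mock-treated library. CHR2 (BRAHMA) is a SWI/SNF ATPase, an enzyme that moves nucleosomes, and the title of the series has it remodel pri-miRNAs by way of SERRATE, part of the plant microprocessor. The groups were chr2 with 1% DMS for 30 min (2 libraries, replicates 1 and 2) and chr2 with water as mock (1 library), 3 of the 6 libraries of the series, all from leaves 3 weeks old. The other 3, from wild-type Columbia (Col), had the same arms (2 with DMS, 1 mock) and entered the fits. The labels do not name the chr2 allele and do not tell whether the numbered libraries stem from different plants, and p-values therefore cover only the spread between libraries, which may be technical.

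DMS methylates the pairing face of adenosine and cytidine where the base is not in a helix. The reverse transcriptase used here, of the thermostable group II intron kind, reads through the methyl group and leaves a mismatch. The mismatch rate of an A or C is therefore taken as a relative measure of how open it was, not as the share of time it was open. Guanosine and uridine (T in the files) are not read in this way and served as a control. A pri-miRNA folds into an imperfect hairpin, from which a Dicer-like enzyme, with SERRATE and a double-stranded RNA binding partner, cuts the duplex of the mature miRNA and its partner strand, and single-stranded flanks, bulges and loops guide where the cuts fall.

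All 19 amplicons, of 230 to 327 nt, were described. Of 5550 positions, 2656 were A or C and 2173 of these lay outside the first and last 26 nt. Coverage of at least 100 in the 3 chr2 libraries left 2172. The cytidine at position 77 of pri-miR390a was dropped with a coverage of 46 in DMS replicate 1. The adenosine at position 28 of UBQ4 was dropped for its mock rate of 20.8%, leaving 2171. Positions are numbered along the transcribed strand, 1 being the first base of the amplicon. The libraries held 451340108 and 384566131 base calls with DMS and 342449353 in the mock, with a median coverage of 76274, 64352.5 and 54596.5 per position. The PCR products had been mixed in equal amounts, so depth does not measure how abundant an RNA was. With no molecular identifiers named in the labels, intervals on single rates cover counting error only.

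The sequences below show where reproducible DMS signal fell in the mRNA of MYC2 and in the pri-miRNAs that the results turn on. They are the inner stretches as deposited with the base calls, 5' to 3', and capitals mark each A or C with a mismatch rate of at least 1% in both chr2 DMS libraries. In MYC2 the capitals run through nearly the whole stretch, whereas in the pri-miRNAs they come in short groups separated by runs with none.
MYC2 27 to 291: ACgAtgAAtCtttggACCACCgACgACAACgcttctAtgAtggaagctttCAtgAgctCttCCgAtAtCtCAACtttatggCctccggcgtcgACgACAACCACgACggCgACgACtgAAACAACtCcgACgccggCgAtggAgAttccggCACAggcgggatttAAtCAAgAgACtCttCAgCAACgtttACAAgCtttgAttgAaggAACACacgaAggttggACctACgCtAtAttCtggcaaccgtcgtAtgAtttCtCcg
pri-miR168a 27 to 274: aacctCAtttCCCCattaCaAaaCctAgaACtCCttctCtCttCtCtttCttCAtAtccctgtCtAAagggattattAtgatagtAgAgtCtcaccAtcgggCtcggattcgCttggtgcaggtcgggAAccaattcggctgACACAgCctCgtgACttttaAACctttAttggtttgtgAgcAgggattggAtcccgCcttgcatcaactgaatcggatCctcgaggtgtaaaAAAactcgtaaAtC
pri-miR159a 27 to 264: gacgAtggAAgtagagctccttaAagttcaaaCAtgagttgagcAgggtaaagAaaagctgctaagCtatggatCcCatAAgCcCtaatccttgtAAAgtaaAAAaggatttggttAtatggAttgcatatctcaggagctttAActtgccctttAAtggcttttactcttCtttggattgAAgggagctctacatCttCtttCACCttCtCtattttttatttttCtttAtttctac
pri-miR166a 27 to 267: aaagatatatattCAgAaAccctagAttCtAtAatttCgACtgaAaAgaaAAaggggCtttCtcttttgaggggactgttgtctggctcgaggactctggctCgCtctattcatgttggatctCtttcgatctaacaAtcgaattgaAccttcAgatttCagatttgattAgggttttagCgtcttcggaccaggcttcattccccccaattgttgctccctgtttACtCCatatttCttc
pri-miR156b 27 to 240: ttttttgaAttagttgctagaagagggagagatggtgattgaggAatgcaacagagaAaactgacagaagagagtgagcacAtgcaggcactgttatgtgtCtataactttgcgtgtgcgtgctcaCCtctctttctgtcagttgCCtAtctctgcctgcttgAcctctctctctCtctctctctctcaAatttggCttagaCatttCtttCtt

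The mean A/C mismatch rate of every amplicon in chr2 was higher with DMS than in the mock, in some amplicons through a few positions only. Over the 2171 positions the mean was 2.18% and 2.06% with DMS, against 0.0682% in the mock. The median was far lower, at 0.123% and 0.129% with DMS against 0.0384% in the mock, so most of the signal sat in a minority of positions. At 2382 G/T positions the mean was 0.172% and 0.182% with DMS against 0.0762%, and the median was 0.0381% and 0.0399% against 0.0405%. In the mRNAs alone the G/T median was higher with DMS, at 0.104% and 0.0915% against 0.0525%. It was 0.122% and 0.134% against 0.0526% in UBQ4 and 0.134% and 0.123% against 0.0593% in MYC2. In MPK3 it was 0.0444% and 0.0332% against 0.0431%. By limma on log2 mean rates with Benjamini-Hochberg adjustment, 19 of 19 amplicons were above the mock (100% called). The fold over mock lay between 11.4 in pri-miR319b (95% interval 9.70 to 13.4) and 52.8 in MPK3 (44.7 to 62.3). It was least certain in pri-miR160c, at 11.5 (1.39 to 95.3, limma adjusted p = 0.0348). With the median over positions in place of the mean, 7 of 19 amplicons passed, and in pri-miR319a and pri-miR390a the median with DMS was below that of the mock (0.934 and 0.807 of it). The 3 highest positions made up 85.2% and 95.2% of the summed A/C rate with DMS in pri-miR319a, and 59.4% and 73.8% in pri-miR165a. Neither amplicon had a position at 1% or more in both DMS libraries, so their higher means rest on positions that did not repeat. With either DMS library left out 18 means passed. The G/T means also differed in value in some amplicons, at 1.03% and 0.282% with DMS against 0.0538% in pri-miR167b and 0.198% and 0.787% against 0.0920% in pri-miR319a. None of the 19 G/T means passed limma (smallest adjusted p = 0.0993).

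**Figure D1:**
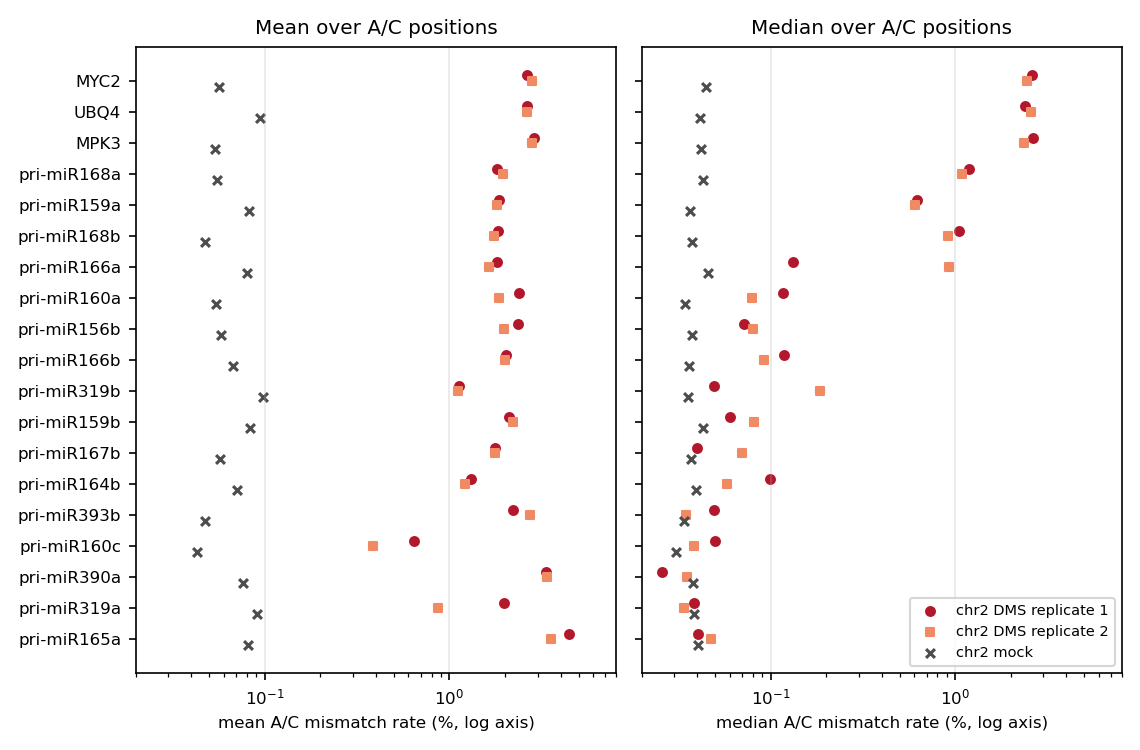
Mean (left) and median (right) mismatch rate over the A/C positions of each amplicon, in % on a log axis. Circles and squares are chr2 DMS replicates 1 and 2 and crosses the chr2 mock; amplicons run from the highest to the lowest share of positions at 1% or more in both DMS libraries. Means with DMS lie between 0.385% and 4.43%, all above the mock, while medians are over 2% in the 3 mRNAs only.

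Signal repeated between the DMS libraries at 594 of 2171 A/C positions, 27.4% of them, taking a rate of at least 1% in both as the mark (called repeated signal, and such positions open, from here on). The mark, and the capitals in sequences, also required the 95% Wilson interval of each DMS rate to lie above that of the mock. The same mark was met at 1 of 2382 G/T positions (0.042%). A further 319 A/C positions (14.7%) had at least 1% in one DMS library and under 0.2% in the other, against 76 G/T positions (3.19%). In edgeR (quasi-likelihood F test, p adjusted by Benjamini-Hochberg), 364 of the 2166 A/C positions tested lay above the mock (16.8%) and 1 lay below it. No G/T position of 2382 passed (0% called), with 175 at an unadjusted p under 0.05 in edgeR, none by limma and 44 above the mock by DESeq2. The edgeR count rests on all 6 libraries: with the 3 chr2 libraries alone, or without chr2 DMS replicate 1 or replicate 2, it was 0. It was also 0 with all 6 libraries under a median-ratio size factor (1013 at an unadjusted p under 0.05) and with the replicate number as a block (553), while DESeq2 called 992.

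The 3 mRNAs were open along most of their length. MYC2 encodes a transcription factor of jasmonate signalling, MPK3 a MAP kinase of stress and immune signalling, and UBQ4 polyubiquitin, whose reads may include other ubiquitin genes. MYC2 had a mean rate of 2.64% and 2.78% with DMS, against 0.0568% in the mock, and 110 of its 141 A/C positions (78.0%) were at 1% or more in both DMS libraries. UBQ4 had 2.63% and 2.64% against 0.0943%, with 85 of 109 positions (78.0%). MPK3 had 2.87% and 2.78% against 0.0535%, with 105 of 137 (76.6%). EdgeR called 118, 86 and 59 positions in MYC2, UBQ4 and MPK3. The replicates ranked positions alike in MYC2 and UBQ4 (Spearman's rho 0.903 and 0.899 over positions, as a description) and much less so in MPK3 (0.343). No position of MYC2 or UBQ4 was high in one DMS library only, and 8 of MPK3 were.

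Within MYC2 the 30 nt with the highest mean rate, positions 120 to 149, had 3.78% and 3.69% with DMS against 0.0493% in the mock, and all 22 of their A/C positions were at 1% or more in both. The lowest 30 nt, positions 262 to 291, had 1.40% and 1.72% against 0.0800%. In UBQ4 positions 127 to 156 had 3.50% and 3.65% against 0.0499% in the mock, and positions 97 to 126 just upstream 1.55% and 1.43% against 0.0474%. Capitals have the same meaning as above, and both UBQ4 windows are shown since they adjoin.
MYC2 120 to 149: ACgACAACCACgACggCgACgACtgAAACA
UBQ4 127 to 156: tCttgCAgAttACAACAtCCAgAAggagtC
UBQ4 97 to 126: cgctgggAAgcagCttgaggatggtCggac

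The single positions given here were chosen for a high rate in both DMS libraries. The adenosine at position 126 of MYC2 had 6.68% and 6.76% with DMS, against 0.0451% in the mock (edgeR adjusted p = 0.0322). At position 149 of UBQ4, also an A, the rates were 6.74% and 6.86% against 0.0284% (edgeR adjusted p = 0.0322). The adenosine at position 164 of MPK3 had 5.74% and 8.07% against 0.0263% (edgeR adjusted p = 0.0322), and the C at position 168, close by, had 7.43% and 6.16% against 0.0484%. These 4 are unpaired in the predicted fold. The C at position 180 of MYC2, paired at a helix end, had 5.33% and 6.26% against 0.0590% (edgeR adjusted p = 0.0322). The cytidine at position 276 of UBQ4, inside a predicted helix, shows the use of the mock: at 6.60% and 6.43% with DMS it ranked among the highest of that amplicon, but the mock had 1.20% there, and it did not pass (edgeR adjusted p = 0.303).

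**Figure D2:**
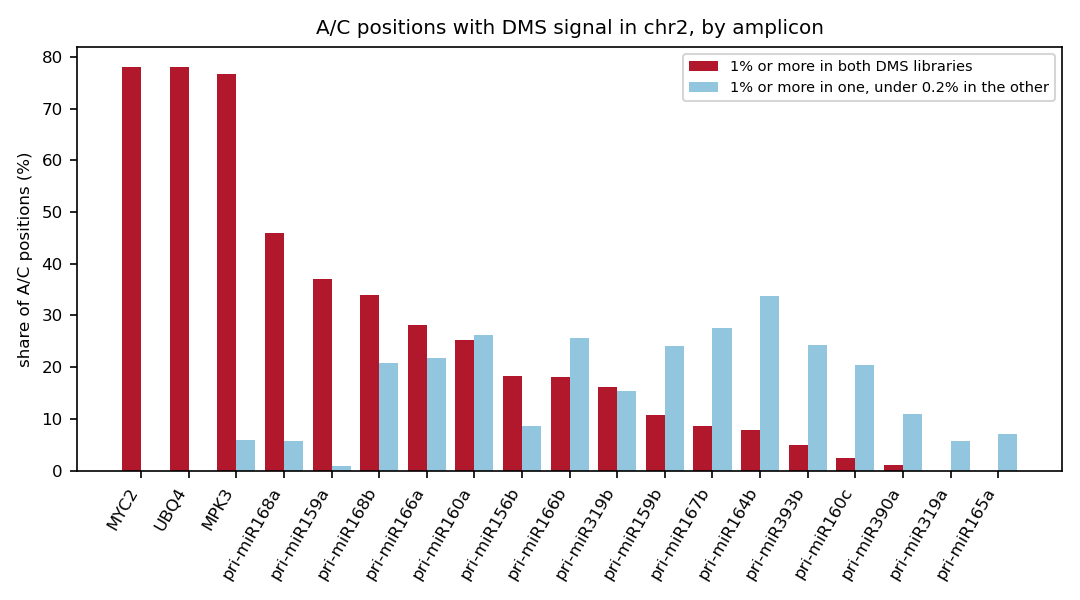
Share of the A/C positions of each amplicon (%) with a mismatch rate of 1% or more in both chr2 DMS libraries (red) and with 1% or more in one library and under 0.2% in the other (blue). The red bar is near 78% in the mRNAs and at most 46.0% in the pri-miRNAs, and from pri-miR166b rightward all but pri-miR319b have a taller blue bar.

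Among the pri-miRNAs, 294 of 1784 A/C positions were at 1% or more in both DMS libraries (16.5%) and 311 were high in one library only (17.4%). Their mean rates spanned 0.641% to 4.43% in DMS replicate 1 and 0.385% to 3.56% in replicate 2, a range that holds the means of the mRNAs. Their medians, in contrast, were 1.19% and 1.09% at most. The share of positions with repeated signal ran from 46.0% in pri-miR168a to 0% in pri-miR319a and pri-miR165a, and edgeR called 101 positions in all, in 11 of the 16.

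The precursors of miR168, which represses AGO1, the main effector of miRNAs, included the pri-miRNA with the largest share of repeated positions, pri-miR168a. Pri-miR168a had a mean rate of 1.81% and 1.95% with DMS against 0.0550% in the mock, and a median of 1.19% and 1.09% against 0.0431%. Of its 124 A/C positions 57 had 1% or more in both DMS libraries, 7 were high in one only, and edgeR called 23. In pri-miR168b the mean was 1.84% and 1.75% against 0.0474%, with 39 of 115 positions at 1% or more in both but 24 in one only, and edgeR called 6. The sequence 5' of the predicted hairpin of pri-miR168a was open at 27 of 47 positions (mean 2.25% and 2.27% with DMS against 0.0450%). The paired stem was the most closed part, with 3 of 39 positions and a mean of 0.520% and 0.506% against 0.0766%. Unpaired bases of the stem had 10 of 14. The loop end of the hairpin, all that its innermost pair encloses and here with further helices, had 15 of 20. The mean of that loop end was 2.78% and 2.74% against 0.0503%. The highest 30 nt, positions 167 to 196, lie at that loop end and had 3.05% and 3.09% with DMS against 0.0496%.
pri-miR168a 167 to 196: tgACACAgCctCgtgACttttaAACctttA
pri-miR168b 183 to 212: CCgACACgtgtCttgtcAtggttggtttgt
The second line is the highest window of pri-miR168b, which spans its loop end, with 4.07% and 4.48% with DMS against 0.0609%. Of its 9 A/C positions 8 had repeated signal, while the predicted fold left 2 unpaired. The adenosine at position 112 of pri-miR168a, at the end of a predicted helix just before the hairpin, reached 10.9% and 8.45% against 0.0307% (edgeR adjusted p = 0.0326). In the loop, the A at position 169 had 9.21% and 7.28% against 0.0711% and just missed the threshold (edgeR adjusted p = 0.0517).

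Pri-miR159a, the precursor of a miRNA that represses GAMYB-like transcription factors, gave the most repeatable pattern of the pri-miRNAs. Its mean rate was 1.85% and 1.81% with DMS against 0.0826% in the mock, and its median 0.621% and 0.609% against 0.0367%. Of 108 positions 40 had 1% or more in both DMS libraries and 1 was high in one only; edgeR called 25, the most of any pri-miRNA. Spearman's rho between the replicates was 0.862 over positions. Unpaired bases of the predicted stem were open at 16 of 22 positions (3.82% and 3.66% with DMS against 0.113%), paired ones at 9 of 62 (0.618% and 0.648% against 0.0716%). The adenosine at position 208 had 11.5% and 11.6% with DMS against 0.110% in the mock (95% Wilson interval of the mock 0.0844% to 0.144%; edgeR adjusted p = 0.0436), and the one beside it, at 209, 2.97% and 3.03% against 0.0186% (0.0322). The A at position 80 had 10.2% and 8.97%, with a mock rate of 0.726%, and did not pass (edgeR adjusted p = 0.166). Its highest window, positions 224 to 253, starts at the 3' end of the hairpin and had 4.59% and 4.22% with DMS against 0.117%.
pri-miR159a 224 to 253: ttCtttCACCttCtCtattttttatttttC
Pri-miR159b had a like mean (2.09% and 2.20% against 0.0834%) but a median of 0.0600% and 0.0808% against 0.0430%. There 13 of 120 positions were at 1% or more in both DMS libraries and 29 in one only.

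**Figure D3:**
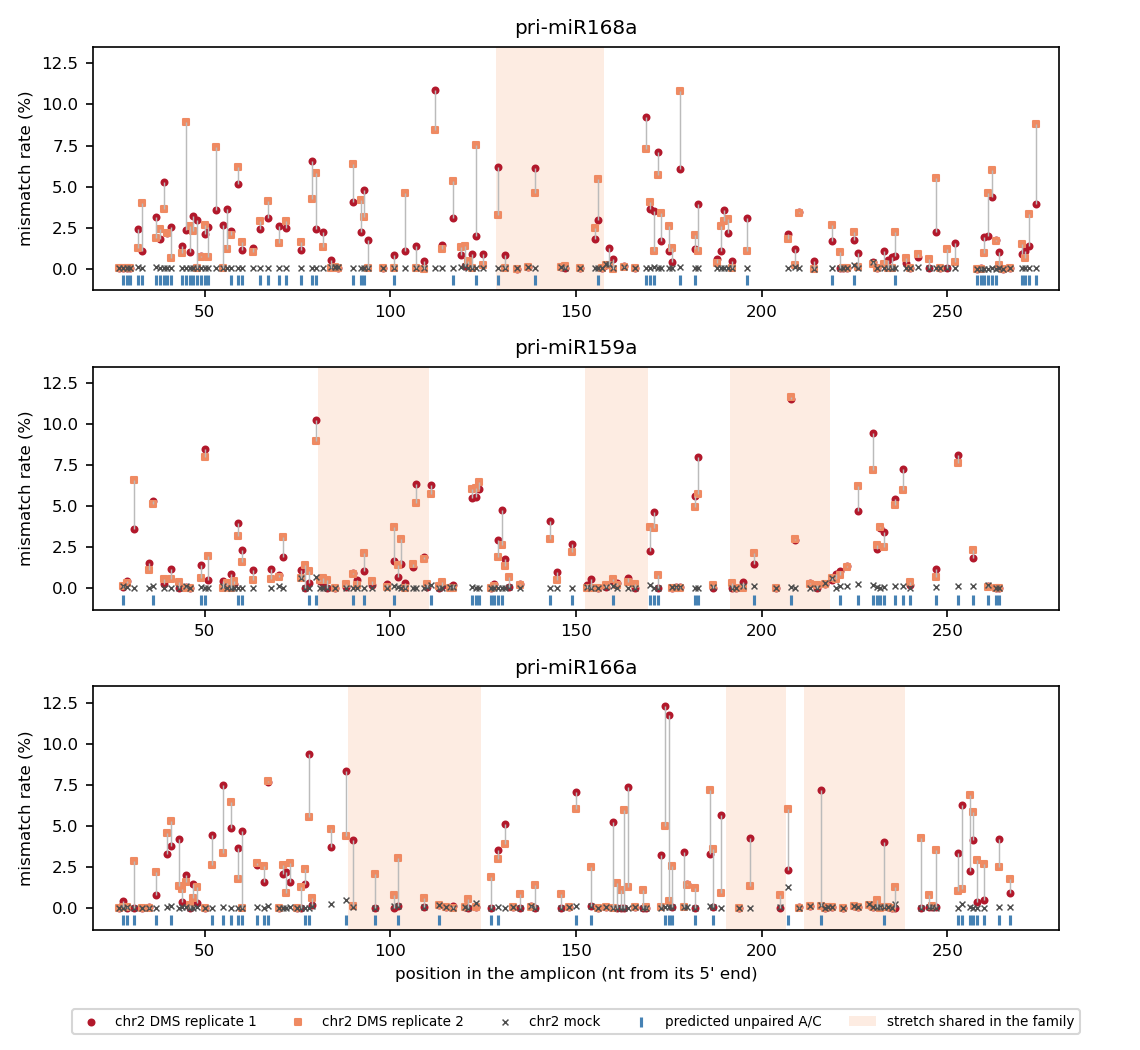
Mismatch rate (%) of each A/C position along pri-miR168a, pri-miR159a and pri-miR166a, in nt from the 5' end of the amplicon. Red circles and orange squares are chr2 DMS replicates 1 and 2, joined by a grey line, crosses the chr2 mock, blue ticks A/C positions that the predicted fold leaves unpaired, and shading the stretches identical within a miRNA family. In pri-miR159a the circle and the square at position 208 coincide at 11.5% and 11.6%; in pri-miR166a many pairs stand far apart.

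In the family of miR165 and miR166, which restrict HD-ZIP III transcription factors and so leaf polarity, the members differed. Pri-miR166a had 31 of 110 positions at 1% or more in both DMS libraries and 24 in one only, with a mean of 1.82% and 1.65% with DMS against 0.0798% in the mock. Its median was 0.132% in DMS replicate 1 and 0.924% in replicate 2. Unpaired stem bases were open at 17 of 27 positions and paired ones at 7 of 50. The cytidine at position 67 had 7.66% and 7.73% with DMS against 0.146% (edgeR adjusted p = 0.0380). In pri-miR166b 24 of 133 positions had repeated signal and 34 were high in one library only, and the C at position 223, in the hairpin loop, had 9.97% and 15.2% against 0.0326% (edgeR adjusted p = 0.0325). Pri-miR165a had no position at 1% or more in both libraries although its mean, 4.43% and 3.56% with DMS against 0.0806%, was the highest of all amplicons; its values are given further on.

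Precursors that act on auxin signalling, those of miR160 and miR167 (auxin response factors) and miR393 (auxin receptors), varied in how often signal repeated. Pri-miR160a had 26 of 103 positions (25.2%) at 1% or more in both DMS libraries and 27 in one only, with a mean of 2.38% and 1.85% with DMS against 0.0543%. Its cytidine at position 74, paired inside a helix of the predicted fold, had 22.3% and 21.8% against 0.313% but did not pass (edgeR adjusted p = 0.153). Pri-miR160c had the lowest mean, 0.641% and 0.385% with DMS against 0.0431%, and 2 of 83 positions in both. Pri-miR167b had 10 of 116 in both and 32 in one only; its C at position 60 had 12.0% and 7.21% against 0.110% (edgeR adjusted p = 0.0456). Pri-miR393b had 7 of 140 in both and 34 in one only. The adenosine at position 138 of pri-miR393b, also predicted to be inside a helix, had 5.10% and 5.63% with DMS against 0.0270% (edgeR adjusted p = 0.0322), while in Col it had 0.0167% and 0.0257% with DMS against 0.0179% in the mock. That difference between genotypes did not pass (edgeR adjusted p = 0.591).

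Pri-miR156b is the precursor of a miRNA that keeps plants juvenile by repressing SPL transcription factors. It had 17 of 93 positions at 1% or more in both DMS libraries and 8 in one only. Its ratio of unpaired to paired mean rates was the highest of any amplicon, given below. Its cytidine at position 238 had 19.3% and 20.1% with DMS against 0.172%, its A at 190 had 20.6% and 16.2% against 0.175%, and its C at 202 had 18.5% and 16.2% against 0.105%. None of these 3 passed edgeR (adjusted p = 0.442, 0.136 and 0.0722). At position 238 the Col DMS libraries had 23.8% and 0.285%. Pri-miR164b, whose miRNA represses NAC factors of the CUC group, had 7 of 89 positions in both and 30 in one only, the highest such share. Pri-miR319b, whose miRNA represses TCP factors, had 20 of 123 in both and 19 in one only. Its adenosine at position 56, again inside a predicted helix, had 7.39% and 4.71% with DMS against 0.0343% (edgeR adjusted p = 0.0343). Pri-miR319a had none of 122 in both, and pri-miR390a, whose miRNA triggers trans-acting siRNAs, had 1 of 91.

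**Figure D4:**
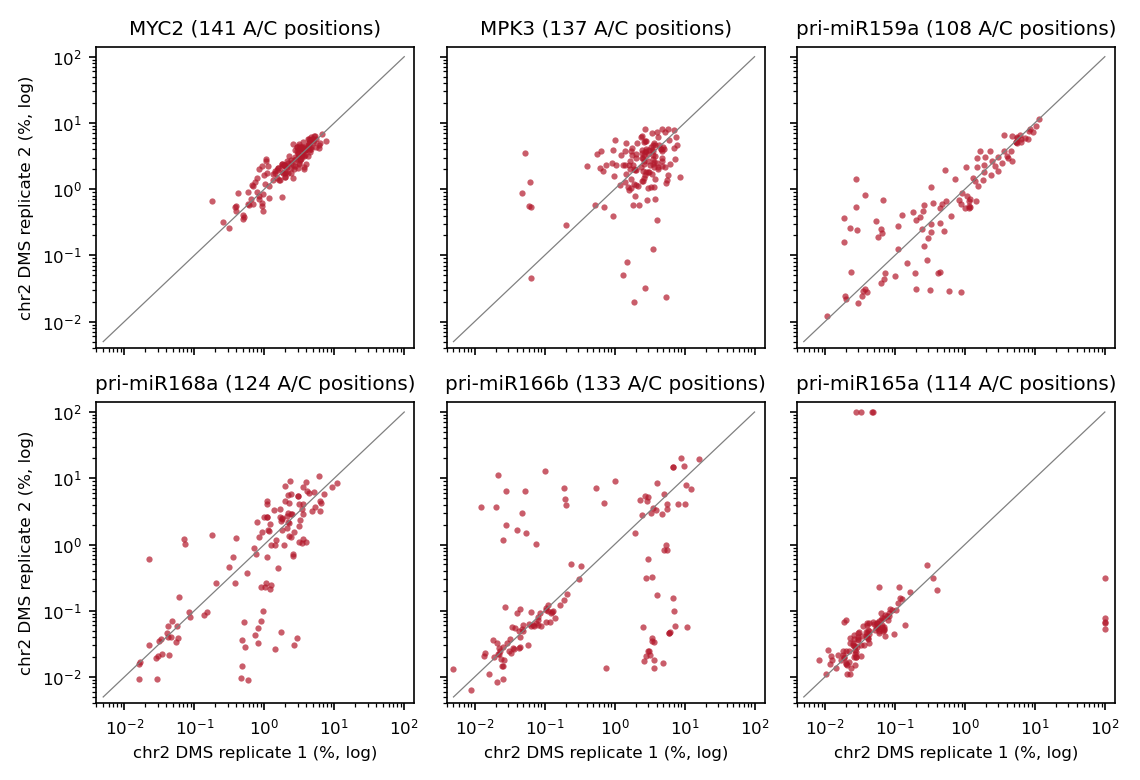
Mismatch rate of each A/C position in chr2 DMS replicate 2 against chr2 DMS replicate 1, in % on log axes, for 6 amplicons; the line marks equal rates and values under 0.005% are drawn at 0.005%. MYC2 and pri-miR159a follow the line, MPK3 and pri-miR168a scatter around it, pri-miR166b has positions along both arms, and pri-miR165a has 5 positions at the far right and 4 at the top.

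Rates of 50% or more occurred in one chr2 DMS library at a time. At 22 A/C positions one chr2 DMS library had 50% or more, at none did both, and the chr2 mock had at most 0.376% at any of them. They lay in 4 amplicons: 9 in pri-miR165a, 5 in pri-miR393b, 4 in pri-miR390a and 4 in pri-miR319a, and 11 of the 22 were predicted to be unpaired. In pri-miR165a DMS replicate 1 had 99.1% to 100.0% at positions 32, 102, 143, 209 and 252, where replicate 2 had 0.0538% to 0.311% and the mock 0.0293% to 0.205%. DMS replicate 2 had 99.6% to 99.9% at positions 56, 154, 217 and 268. Outside these 9 positions neither DMS library of pri-miR165a reached 1%. The following sequence shows them, with capitals marking positions at 50% or more in one chr2 DMS library.
pri-miR165a 27 to 276: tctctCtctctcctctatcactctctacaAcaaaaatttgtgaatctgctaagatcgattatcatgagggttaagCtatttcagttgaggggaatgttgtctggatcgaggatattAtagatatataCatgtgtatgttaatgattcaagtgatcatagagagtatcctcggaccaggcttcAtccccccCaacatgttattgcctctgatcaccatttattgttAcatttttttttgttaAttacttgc
At the 5 positions of replicate 1 the Col mock had 5.53% to 6.52%, while both Col DMS libraries had at most 0.120%. The mismatched base was the same in the Col mock as in chr2 DMS replicate 1 at all 5 (T, G, T, T and G in order of position), and it made up at least 98.7% of the mismatches in either. Whether reads passed between libraries was not tested.

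In pri-miR390a DMS replicate 1 had 99.9% to 100.0% at positions 58, 189 and 196. Replicate 2 had 0.0462%, 0.0821% and 32.8% at these, and 53.4% at position 74. In pri-miR319a DMS replicate 1 had 78.9%, 61.0% and 64.5% at positions 150, 200 and 261, and replicate 2 had 99.9% at position 262. A T of pri-miR319a, at position 253, had 99.9% in replicate 2 and 0.0204% in replicate 1, the only G/T position at 50% or more. In pri-miR393b the 5 positions were 57.8% to 68.7% in DMS replicate 2, and the 2 of them in the hairpin loop had 7.63% and 9.30% in replicate 1. Some of these positions were also high with DMS in Col. Col DMS replicate 2 had 47.9%, 63.9% and 63.4% at positions 58, 189 and 196 of pri-miR390a, and 99.9% at position 275 of pri-miR393b. Col DMS replicate 1 had 11.7%, 0.0423%, 0.382% and 0.0994% there. The other A/C positions at 50% or more in chr2 had at most 8.53% with DMS in Col.

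The kind of mismatch was compared next. Where the mRNAs had 1% or more in both DMS libraries, adenosines were read mostly as T (65.5% and 64.9% of mismatches with DMS, against 37.2% in the mock), with G and C making up the rest. Cytidines were read as T in 50.3% and 52.3% with DMS, against 68.2% in the mock, and as A in 33.1% and 30.4%, against 24.0%. Averaged over positions, the pri-miRNAs had nearly the same split, with A read as T in 71.0% and 69.0% and C read as T in 56.2% and 52.6%. Position by position they differed. At positions with 1% or more in a library, the commonest wrong base made up a median of 98.6% and 98.4% of mismatches in the pri-miRNAs, against 63.8% and 67.9% in the mRNAs. It made up 95% or more at 309 of 507 and 284 of 481 such positions of the pri-miRNAs, but at 35 of 321 and 49 of 321 of the mRNAs. Most of these mRNA positions, 27 and 38, lay in MPK3 (22.9% and 32.8% of its positions at 1% or more). UBQ4 had 2 and 5 of them, and MYC2 6 and 6. Pri-miR159a and pri-miR168a lay between the pooled classes, with medians of 81.5% and 73.5%, and 78.4% and 76.7%. MPK3 had medians of 68.4% and 76.8%. The share of positions at 95% or more was lower in pri-miR159a (12.5% and 13.6%) than in MPK3. In pri-miR393b, pri-miR390a, pri-miR319a and pri-miR165a the median was at least 99.6% in each library. Where both libraries had 1% or more, the commonest wrong base was the same in both at 246 of 300 positions of the mRNAs (82.0%) and at 190 of 294 of the pri-miRNAs (64.6%). Coverage counts reads, not the RNA molecules behind them.

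The rates were then set against folds predicted from the amplicon sequence. In the pri-miRNAs, predicted unpaired A/C positions had a mean of 3.40% and 3.03% with DMS and paired ones 1.28% and 1.25%, a ratio of 2.53 ± 0.165 (SD, n = 2). In the mock these were 0.0727% and 0.0662%. In the mRNAs unpaired positions had 3.15% and 3.18% and paired ones 2.26% and 2.28%, a ratio of 1.39 ± 0.000425 (SD, n = 2), with 0.0562% and 0.0767% in the mock. Unpaired means exceeded paired means in both DMS libraries in 14 of 16 pri-miRNAs and 3 of 3 mRNAs, and in the mock in 9 of 16 and 0 of 3. The exceptions were pri-miR319a and pri-miR165a, which have no repeated signal. Single high positions can set such means. By rank, the area under the curve (the chance that an unpaired position outranks a paired one) was 0.641 and 0.617 over the 16 pri-miRNAs. It was 0.433 and 0.488 in pri-miR390a, and 0.665 and 0.429 in pri-miR160c. In pri-miR167b 8.51% of unpaired and 8.70% of paired positions had repeated signal. The ratio of unpaired to paired means was highest in pri-miR156b, with 6.76% and 5.94% at unpaired and 0.738% and 0.527% at paired positions. By rank pri-miR159a was above pri-miR156b, with an area under the curve of 0.809 and 0.816 against 0.786 and 0.796. Unpaired against paired means were 3.57% and 3.38% against 0.662% and 0.735% in pri-miR159a. In MYC2 they were 3.25% and 3.36% against 1.97% and 2.14%. By counts, 191 of 660 unpaired positions of the pri-miRNAs were at 1% or more in both DMS libraries (28.9%) and 103 of 1124 paired ones (9.16%). In pri-miR168a these shares were 71.4% and 25.0%, in pri-miR159a 68.2% and 15.6%, in pri-miR156b 52.0% and 5.88%, and in MYC2 95.9% and 58.2%.

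**Figure D5:**
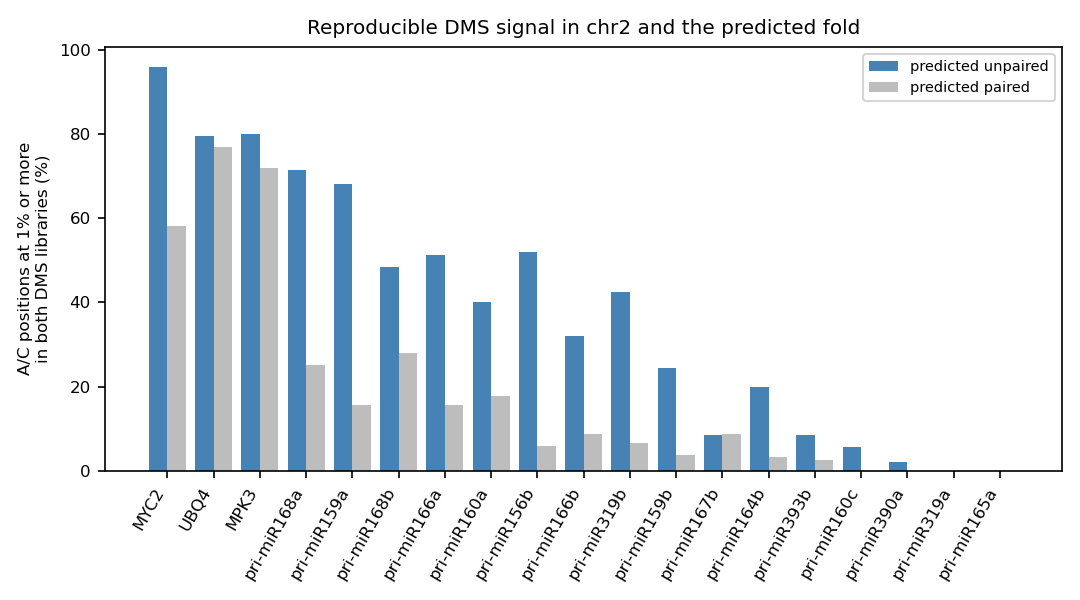
Share (%) of predicted unpaired (blue) and predicted paired (grey) A/C positions of each amplicon with a mismatch rate of 1% or more in both chr2 DMS libraries. In pri-miR168a, pri-miR159a, pri-miR166a, pri-miR156b and pri-miR319b the blue bar is over 2 times as tall as the grey one, and in UBQ4 and MPK3 they are nearly level.

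Structural context graded these shares. In the pri-miRNAs 7.16% of paired positions inside a helix had 1% or more in both DMS libraries, 12.1% of those at helix ends, 29.1% in bulges and internal loops, 29.3% in hairpin loops, 33.0% in multibranch loops and 21.1% outside all helices. Along the main hairpin, paired stem positions had a mean of 0.830% ± 0.0623 and unpaired stem positions 2.75% ± 0.348 (SD, n = 2 each), with 5.02% and 33.1% of positions at 1% or more in both. The loop end had 3.61% ± 0.425, the sequence 5' of the hairpin 2.39% ± 0.00118 and that 3' of it 3.92% ± 0.00110 (SD, n = 2 each). At the loop end the median was 0.0720% and 0.0647%, and 24.5% of positions had repeated signal. The small SDs do not mean that single amplicons repeated. The 3' part had 1.39% and 5.19% in pri-miR393b and 10.0% and 5.22% in pri-miR390a. In pri-miR165a it had 12.6% in both libraries, set by a different position in each. The mock had 0.0462% to 0.0943% in these 5 parts. Means of the loop end, the 5' part and the 3' part leaned on the rates near 100%. Without the 22 positions at 50% or more they were 2.15% ± 0.622, 1.91% ± 0.0209 and 2.45% ± 0.208 (SD, n = 2 each). Paired stem positions then had 0.545%. In the mRNAs hairpin loops had 3.47% ± 0.0183 and paired positions inside helices 2.31% ± 0.0446 (SD, n = 2 each). Adenosine and cytidine reacted alike where unpaired in the mRNAs, with a ratio of mean rates A over C of 1.02 and 0.938, and adenosine more where paired (1.42 and 1.39); in the mock both ratios were below 1 (0.610 and 0.506).

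Precursors of one family share the miRNA and often its partner strand, so stretches of at least 16 nt identical between family members were compared with the rest of the same precursors. Over 11 pri-miRNAs, 24 of 250 A/C positions in shared stretches were at 1% or more in both DMS libraries (9.60%), against 228 of 1005 elsewhere (22.7%). Shared stretches are also more paired, with 22.0% of positions predicted unpaired against 39.9% elsewhere. The lines below give stretches of the same sequence in 2 precursors, with capitals again for 1% or more in both chr2 DMS libraries.
pri-miR166a 212 to 238: tcggaccaggcttcattccccccaatt
pri-miR166b 260 to 286: tcggaccaggcttcattccccccaatt
pri-miR168a 129 to 157: CtcggattcgCttggtgcaggtcgggAAc
pri-miR168b 141 to 169: ctcggattcgCttggtgcaggtcgggaAc
pri-miR159a 192 to 218: actcttCtttggattgAAgggagctct
pri-miR159b 198 to 224: actcttctttggattgaagggagctct
pri-miR160a 138 to 160: tatgcctggctccctgtatgcca
pri-miR160c 92 to 114: tatgcctggctccctgtatgcca
pri-miR319a 211 to 231: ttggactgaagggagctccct
pri-miR319b 220 to 240: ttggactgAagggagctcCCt
In pri-miR166a 1 of 30 shared positions had repeated signal, against 30 of 80 elsewhere, in pri-miR166b 0 of 30 against 24 of 103, and in pri-miR160a 0 of 11 against 26 of 92. Pri-miR319b went the other way, with 6 of 33 (18.2%) against 14 of 90 (15.6%). Pri-miR168a had 4 of 11 against 53 of 113. Its cytidine at position 139 had 6.16% and 4.60% with DMS against 0.0179% (edgeR adjusted p = 0.0325), and the same base of pri-miR168b, at position 151, 6.49% and 8.02% against 0.0199%, which did not pass (0.316). The stretch of pri-miR159a at 192 to 218 holds the adenosine at 208 with 11.5% and 11.6%. In pri-miR159b the same stretch had no position with repeated signal, with means of 0.0745% and 1.40% with DMS against 0.0816%. Reads from such stretches may be shared between precursors, so these values are uncertain.

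Set against Col, no A/C position of 2166 differed in its DMS response by edgeR (75 at an unadjusted p under 0.05; DESeq2 called 50, of which 24 were higher in chr2). Over whole amplicons the DMS response in chr2 over that in Col was between 0.801 and 2.07 in 18 of them, and none passed limma. In MYC2 the ratio was 1.13 (95% interval 0.864 to 1.49), in pri-miR159a 1.01 (0.807 to 1.28) and in pri-miR168a 1.18 (0.788 to 1.77). In pri-miR165a it was 11.5 (2.15 to 61.5; limma adjusted p = 0.360), where the Col mock had the 5 raised positions given above. An interval that spans 1 does not show that the genotypes are alike.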

How the data were processed

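Nuclear RNA of leaves was reverse transcribed with gene-specific primers, amplified, mixed and fragmented before sequencing, per the labels' protocols. The deposited files hold counts of A, C, G and T calls per amplicon position with the reference base, per the file headers. Tools named in the submitters' processing notes are SAMtools 1.5, Picard, BWA and cutadapt, with no roles. A genome build is not given in the sources used here, and no coordinates are printed. All 19 amplicon names matched a table of gene names.

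From the counts, coverage was taken over all 4 bases, and the mismatch rate is the share of calls that differ from the reference base. Repeated header lines were dropped. Positions within 26 nt of an end (primers), with coverage under 100 or with a chr2 mock rate over 5% were left out. Tests of single positions also required at least 10 mismatches and at most 5% in the Col mock, which removed 5 positions of pri-miR165a. The limma test of amplicon means kept these 5 positions. EdgeR 4.0.16 (R 4.3.3) was fitted to mismatch counts of all 6 libraries with log coverage as offset and no further size factor. Limma 3.58.1 was fitted to log2 mean rates per amplicon, and both used Benjamini-Hochberg adjustment at 0.05. Both were tested on simulated data with a preset spread between libraries, not one taken from these data. Positions high in one DMS library only were not simulated, so that test does not cover them. DESeq2 1.42.0 was an alternative. For a single value, 2 libraries against 1 allow no two-sided exact permutation p below 0.667. Folds are minimum free energy structures of ViennaRNA 2.7.2. The main hairpin is the longest run of nested pairs. Its loop end is all that the innermost pair encloses. Among the pri-miRNAs it holds further helices in pri-miR393b, pri-miR168a, pri-miR166a and pri-miR165a. Values ± SD are over the 2 DMS libraries, and correlations over positions carry no p.

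Named positions are, per amplicon, some of the 3 with the highest lower DMS rate, and any at 50% or more in a DMS library. A clause on mature miRNA positions was not applied here. Stretches shared within families, the highest and lowest 30 nt windows (at least 8 A/C positions), the commonest wrong base, and the positions named in those stretches or for Col were chosen after values were seen. Members and lists were chosen with earlier results of these data known.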

Additional observations from a re-analysis of the deposited data

Results flagged for a closer look

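The outermost 26 nt of the amplicons, left out of every comparison as primer sequence, had a mean A/C rate of 0.104% and 0.0937% in the chr2 DMS libraries, against 0.0606% in the chr2 mock, 1.63 times as high on average over 479 positions. The median there was 0.0356% and 0.0357% with DMS against 0.0347% in the mock.

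At some named positions the chr2 DMS libraries were both above the chr2 mock while the Col DMS libraries were both below the Col mock, and this difference was not tested by itself at the positions of pri-miR165a with over 5% in the Col mock. They were positions 102, 143, 209 and 252 of pri-miR165a, with a mean difference of DMS minus mock in chr2 of 49.97, 49.98, 49.5 and 49.95 percentage points, each set by DMS replicate 1 alone. Position 272 of pri-miR165a had a difference of 0.0721 percentage points (edgeR adjusted p of the difference between genotypes 0.999). Position 32 of pri-miR160c had 1.503 percentage points, from 2.47% and 0.607% with DMS against 0.0339% in chr2, and 0.0261% and 0.0263% with DMS against 0.0306% in Col (edgeR adjusted p of the difference 0.999).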

How the results depend on the processing

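The count of 364 A/C positions above the chr2 mock was between 337 and 364 by edgeR under the coverage, mismatch, mock-limit and primer-end alternatives, and 526 by limma. DESeq2 called 992. It was 0 with a median-ratio size factor (1013 at an unadjusted p under 0.05), with the 3 chr2 libraries alone (662), and without either chr2 DMS replicate (0 in both cases, with 675 and 663 at an unadjusted p under 0.05). The numbers of the DMS libraries share no stated origin, and deviations of same-numbered libraries correlated at 0.0315 over 2166 positions; with the replicate block the count was 0. DESeq2 also called 44 G/T positions above mock where edgeR called 0, and 50 positions between genotypes where edgeR called 0, and with the replicate block 0 positions differed between genotypes and all 19 amplicon means stayed above mock. Amplicon means passed in 18 or 19 of 19 under the other alternatives, and medians in 7. Leaving out positions of 50% or more moved the ratio of unpaired to paired rates from 2.53 to 2.93, and the means 3' of the hairpin, 5' of it, in the paired stem and at the loop end to 2.45%, 1.91%, 0.545% and 2.15%; keeping primer ends moved the area under the curve from 0.629 to 0.561. The causes of these shifts were not tested. The single mock library per genotype limits every test of DMS against mock. The ratio of mean rates A over C, 1.09 over all A/C positions, was 0.985 without the positions of 50% or more. With medians in place of means, pri-miR319a and pri-miR390a changed direction, at 0.934 and 0.807 of the mock.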
